A study of Mus musculus with 14 samples.

Results

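A group of 10 genes that bring fatty acids into cells and build triglyceride from them was examined in lactating mammary tissue: *Lpl*, *Gpihbp1*, *Vldlr*, *Acsl1*, *Acsl4*, *Gpam*, *Lpin1*, *Dgat1*, *Dgat2* and *Mogat1*. The genes were chosen by name and function, and all 10 were found by symbol among 20515 genes with a usable symbol. RNA was measured by total RNA-seq in 2 mice of a single genotype on day 10 of lactation (L10). Both mice carried 1 wild type allele and 1 Wap-Tbrg4 allele, in which a CRISPR/Cas9 deletion placed *Tbrg4* behind the super-enhancer and the promoter of *Wap*, the whey acidic protein gene. Their label is WT_wTbrg4, and they are called wt/Wap-Tbrg4 here. The study addressed how far this lineage-specific super-enhancer depends on its own promoter, and the mouse line was made on a C57BL/6 background. The age of the mice is not given in the sources used here. Mice of another genotype were not analysed for RNA here, so the values describe wt/Wap-Tbrg4 tissue and give no effect of the allele. With 2 mice no test was made, and every difference below is a description of these mice.

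Milk fat consists mostly of triglyceride, and the secretory cells of the mammary gland obtain part of its fatty acids from the blood. Lipoprotein lipase, held on the capillary wall by GPIHBP1, frees fatty acids from circulating lipoproteins, and acyl-CoA synthetases activate the fatty acids that enter the cell. Acyl groups are then added stepwise to glycerol 3-phosphate, a phosphate is removed by lipins, and diacylglycerol acyltransferases complete the triglyceride, which buds into a lipid droplet.

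The deposited values were exon and intron FPKM, that is, fragments scaled by the length of the exons or introns and by the library, given with 1 decimal. They are per length, so levels of different genes can be compared, but read counts were not given and the depth of the libraries is unknown. The exon FPKM summed to 852961 in replicate 1 and 1788120 in replicate 2, a gap made mainly by milk protein genes: without the 10 highest genes the sums were 174946 and 168597. *Csn2*, which encodes beta-casein, was at 108555 FPKM in replicate 1 and 481937 FPKM in replicate 2. The secretory luminal markers *Xdh* (775.4 and 770.6 FPKM) and *Btn1a1* (1477.7 and 1790.4 FPKM), which both encode proteins of the milk fat globule membrane, were high in both mice, while the luminal keratin genes *Krt8* (31.4 and 14.6 FPKM) and *Krt18* (145.0 and 57.6 FPKM) were more than 2-fold lower in replicate 2 as deposited, and within 2-fold once a trend with GC content was removed (log2 ratios of -0.53 and -0.84). The tissue was whole gland, in which fewer cells of a type and less RNA per cell cannot be told apart.

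Across the group, mean exon FPKM spanned from 844 for *Acsl1* to 0.15 for *Mogat1*, and *Gpam* was listed at 0. In all, 7 of the 10 genes reached a mean of at least 10 exon FPKM, a level that 15.2% of all genes reached. The 10 genes together summed to 1236.1 FPKM in replicate 1 and 1579.1 FPKM in replicate 2, which was 0.145% and 0.0883% of the summed exon FPKM of those mice. *Acsl1* alone made up 59.1% and 60.6% of the group's sum. *Gpam* enters that sum at its listed 0, which gives no measure of its level, as described below. Read by step among the members, high levels stood at lipolysis (*Lpl*), activation (*Acsl1*) and dephosphorylation (*Lpin1*), and the final acyltransferases were at 10.1 to 18.7 FPKM. The first and second acylation are not covered by this reading. Outside the group, *Gpat4* for the first was at 107.0 and 68.3 FPKM and *Agpat1* for the second at 73.6 and 54.0 FPKM, the highest listed genes of those steps.

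**Figure D1:**
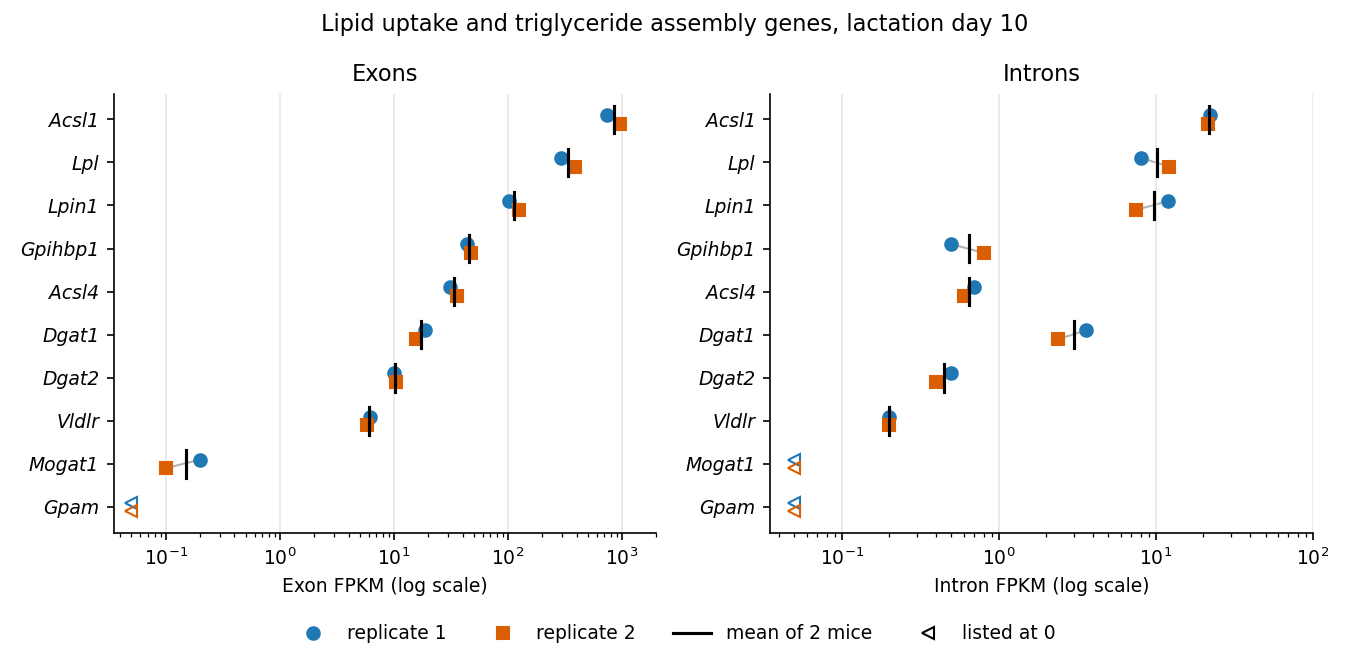
Exon FPKM (left) and intron FPKM (right) of the 10 genes in the 2 wt/Wap-Tbrg4 mice on log axes, with 1 point per mouse, a black bar at the mean and open triangles at the left edge for values of 0. *Acsl1* lies highest at 731.1 and 956.7 exon FPKM, followed by *Lpl* and *Lpin1*, and the exon values of neighboring genes do not overlap between the mice.

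*Lpl* encodes lipoprotein lipase, the enzyme that hydrolyzes triglyceride of circulating lipoproteins. It lies on chromosome 8 from 68880555 to 68906932 on the plus strand of GRCm38 (mm10), as do all positions below unless the minus strand is named. In exons it reached 292.4 FPKM in the mouse called replicate 1 and 383.4 FPKM in replicate 2 (mean 338 ± 64.3 SD, n = 2), rank 62 of all genes. Its intron FPKM was 8.1 and 12.2, rank 49, so *Lpl* stood among the highest genes by both measures and was higher in replicate 2 by both. On a scale that sets each mouse to the same summed FPKM, the exon direction turned, with a log2 ratio of -0.67 in place of 0.39. That scale lowers the exon ratio of every gene, as the gap in sums was made mainly by milk protein genes. Of the summed exon FPKM of *Lpl*, endothelial lipase (*Lipg*) and hepatic lipase (*Lipc*), *Lpl* made up 99.0% and 99.2%.

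*Gpihbp1* encodes the endothelial membrane protein that carries lipoprotein lipase to the capillary lumen, and it lies on chromosome 15 from 75596630 to 75598213. Its exon FPKM was 43.5 and 47.2 (mean 45.4 ± 2.62 SD, n = 2), rank 552. The mice differed by 0.12 on the log2 scale as deposited, and by -0.92 when each was set to the same sum. Its introns were at 0.5 and 0.8 FPKM. *Lpl* was 6.72 times *Gpihbp1* in replicate 1 and 8.12 times in replicate 2. The endothelial markers *Cdh5*, a cell junction cadherin, and *Pecam1*, an adhesion molecule, were lower than *Gpihbp1*: the ratio of *Gpihbp1* to *Cdh5* was 2.51 and 2.71, and to *Pecam1* 2.94 and 3.6. These marker pairs were chosen after the values were seen. The share of endothelial cells in each gland was not measured, and its part in the *Gpihbp1* level was not tested.

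*Vldlr* encodes the very low density lipoprotein receptor, which binds lipoproteins at the cell surface, and it lies on chromosome 19 from 27216480 to 27254231. It was low in both mice, at 6.2 and 5.8 exon FPKM (mean 6.0 ± 0.283 SD, n = 2), rank 4756, with 0.2 intron FPKM in each. *Lpl* exceeded it 47.2-fold in replicate 1 and 66.1-fold in replicate 2. *Scarb1*, which takes up lipid from high density lipoprotein, was 5.84 and 7.02 times *Vldlr*.

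*Acsl1* encodes a long-chain acyl-CoA synthetase, an enzyme that activates fatty acids for use in lipid synthesis or oxidation, and it was the highest gene of the group. It lies on chromosome 8 from 46471037 to 46536051. In exons *Acsl1* reached 731.1 FPKM in replicate 1 and 956.7 FPKM in replicate 2 (mean 844 ± 160 SD, n = 2), rank 23, and 210 genes in all reached a mean of 100 FPKM. Its introns were at 22.1 and 21.5 FPKM, rank 29, and so were nearly level between the mice while the exons differed by 0.39 on the log2 scale, a difference that was -0.68 when each mouse was set to the same sum. *Acsl1* was 2.50 times *Lpl* in both mice.

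*Acsl4* encodes the acyl-CoA synthetase known for its preference for arachidonic acid and lies on the X chromosome from 142317993 to 142390802 on the minus strand. It was at 31.3 and 35.4 exon FPKM (mean 33.4 ± 2.90 SD, n = 2), rank 823, with introns at 0.7 and 0.6 FPKM. *Acsl1* exceeded it 23.4-fold and 27-fold. Within the ACSL family, *Acsl1* made up 93.6% of the exon FPKM in replicate 1 and 95.1% in replicate 2, and *Acsl4* 4.01% and 3.52%. The other members of the family were lower, with *Acsl5* at 10.5 and 8.3 FPKM, *Acsl6* at 7.0 and 3.7 FPKM and *Acsl3* at 1.5 and 2.0 FPKM.

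*Gpam* encodes the mitochondrial glycerol 3-phosphate acyltransferase, which adds the first acyl group, and lies on chromosome 19 from 55067635 to 55127319 on the minus strand. It was listed at 0 exon FPKM and 0 intron FPKM in both mice. A value of 0 in both measures and both mice was given for 29.6% of all genes. The position of *Gpam* bears on how its 0 can be read. From 25671134 to 60581023 on chromosome 19, 137 consecutive listed genes of the minus strand, 123 of them protein-coding, were all at 0 in exons and introns of both mice, over 34.9 Mb. Of the 162 plus-strand genes listed in the same interval, 42 (25.9%) were at 0, and of the 182 minus-strand genes of chromosome 19 outside it, 32 (17.6%) were. No longer run of such genes was found on a strand of any other chromosome, with the Y chromosome left out of the search. Within it also lay *Scd1*, a fatty acid desaturase, *Lipa*, the lysosomal lipase, and *Acta2*, the smooth muscle actin of myoepithelium, each listed at 0 although other myoepithelial genes such as *Myh11* were at 69.2 and 38.8 FPKM. The values of *Scd1* were looked up after the run was seen. The listed 0 therefore gives no measure of the *Gpam* level, and the cause of the run was not tested. *Vldlr*, on the plus strand of the same interval, was not part of it.

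**Figure D2:**
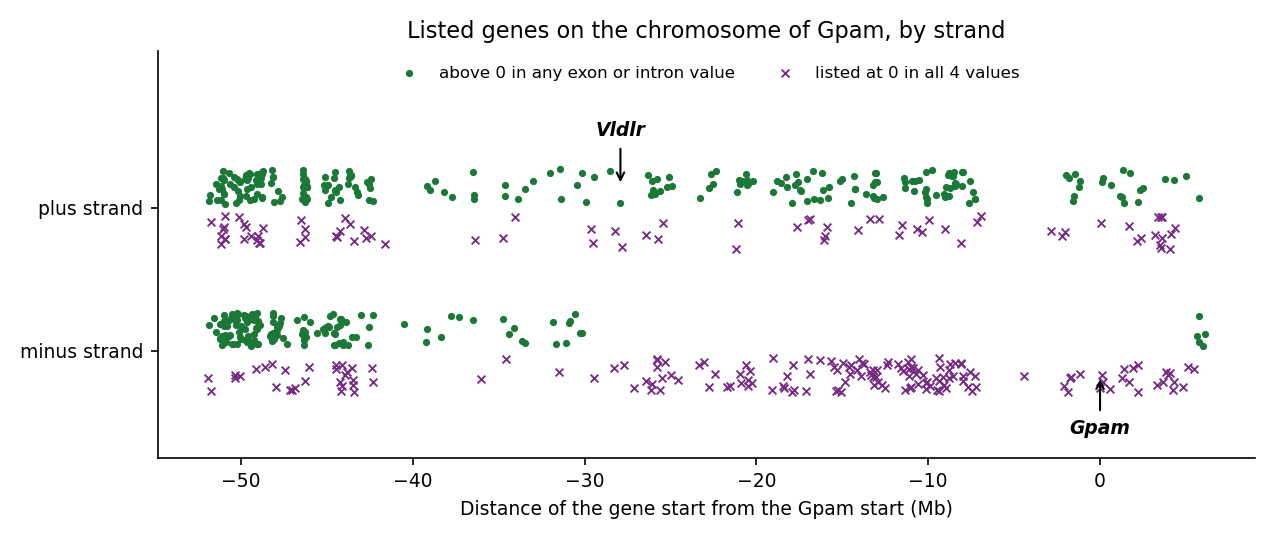
Listed genes of chromosome 19 by the distance of their start from the *Gpam* start in Mb, with the plus strand above and the minus strand below, where dots are genes above 0 in any exon or intron value and crosses are genes at 0 in all 4 values (vertical scatter within a row has no meaning). On the minus strand 137 genes in a row, *Gpam* among them, were at 0, compared with 42 of 162 plus-strand genes over the same stretch.

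For the same step, the related gene *Gpat4*, which encodes an acyltransferase of the endoplasmic reticulum, was at 107.0 and 68.3 exon FPKM. *Gpat3* was at 1.5 and 1.4 FPKM, and *Gpat2* was listed at 0. *Gpat4* was thus 71.3 and 48.8 times *Gpat3*, and a share of the family cannot be given for *Gpam*.

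*Lpin1* encodes lipin 1, a phosphatidate phosphatase that yields diacylglycerol and also acts as a coactivator of transcription. It lies on chromosome 12 from 16535669 to 16653903 on the minus strand. *Lpin1* exons were at 102.6 and 124.5 FPKM (mean 114 ± 15.5 SD, n = 2), rank 184, which makes it the third gene of the group. Its intron FPKM, at 12 in replicate 1 and 7.5 in replicate 2, ran the other way as deposited. With each mouse set to the same sum both were lower in replicate 2, with log2 ratios of -0.78 in exons and -0.90 in introns. Exons and introns were scaled there to separate sums with unlike gaps between the mice, so the shared direction does not show that they moved together. Within a mouse the exon to intron ratio of *Lpin1* was 8.55 in replicate 1 and 16.6 in replicate 2. Among the lipins *Lpin1* made up 95.9% and 97.4% of the exon FPKM, and was 73.3 and 83 times *Lpin2* and 34.2 and 69.2 times *Lpin3*. The unrelated phosphatase gene *Plpp3* came closer, with *Lpin1* at 4.42 and 5.58 times its level. *Lpin1* shares 461 bp with *Ntsr2* on the opposite strand, whose exons were at a mean of 0.05 FPKM. Whether reads were counted by strand is not given in the sources used here.

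*Dgat1* and *Dgat2* encode diacylglycerol acyltransferases of unrelated sequence that both catalyze the last step of triglyceride synthesis. *Dgat1* lies on chromosome 15 from 76502012 to 76512021 on the minus strand and was at 18.7 and 15.6 exon FPKM (mean 17.2 ± 2.19 SD, n = 2), rank 1773. *Dgat2* lies on chromosome 7 from 99153663 to 99182713 on the minus strand and was at 10.1 and 10.4 exon FPKM (mean 10.3 ± 0.212 SD, n = 2), rank 3029. *Dgat1* was the higher of the pair in each mouse, by 1.85 times in replicate 1 and 1.5 times in replicate 2. In introns the gap was wider, with *Dgat1* at 3.6 and 2.4 FPKM and *Dgat2* at 0.5 and 0.4 FPKM, so the ratio was 7.2 and 6.0.

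*Mogat1* encodes a monoacylglycerol acyltransferase, which forms diacylglycerol by a separate route, and lies on chromosome 1 from 78511060 to 78606964. It was near the lowest value that 1 decimal can show, at 0.2 and 0.1 exon FPKM (mean 0.15 ± 0.0707 SD, n = 2), with introns at 0. Its coding sequence also aligned to a scaffold outside the chromosomes at 99.5% identity. How reads mapping to several places were treated is not given, and their part in this level was not tested. Of the diacylglycerol and monoacylglycerol acyltransferase genes, *Dgat1* made up 61.9% and 55.3% of the exon FPKM, *Dgat2* 33.4% and 36.9%, *Awat2* 3.97% and 7.45% and *Mogat1* 0.662% and 0.355%. In the ACSL family, in the lipins and among the lipase genes *Lpl*, *Lipg* and *Lipc* alone, a single gene held over 90%. Other lipase genes were not part of that comparison.

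**Figure D3:**
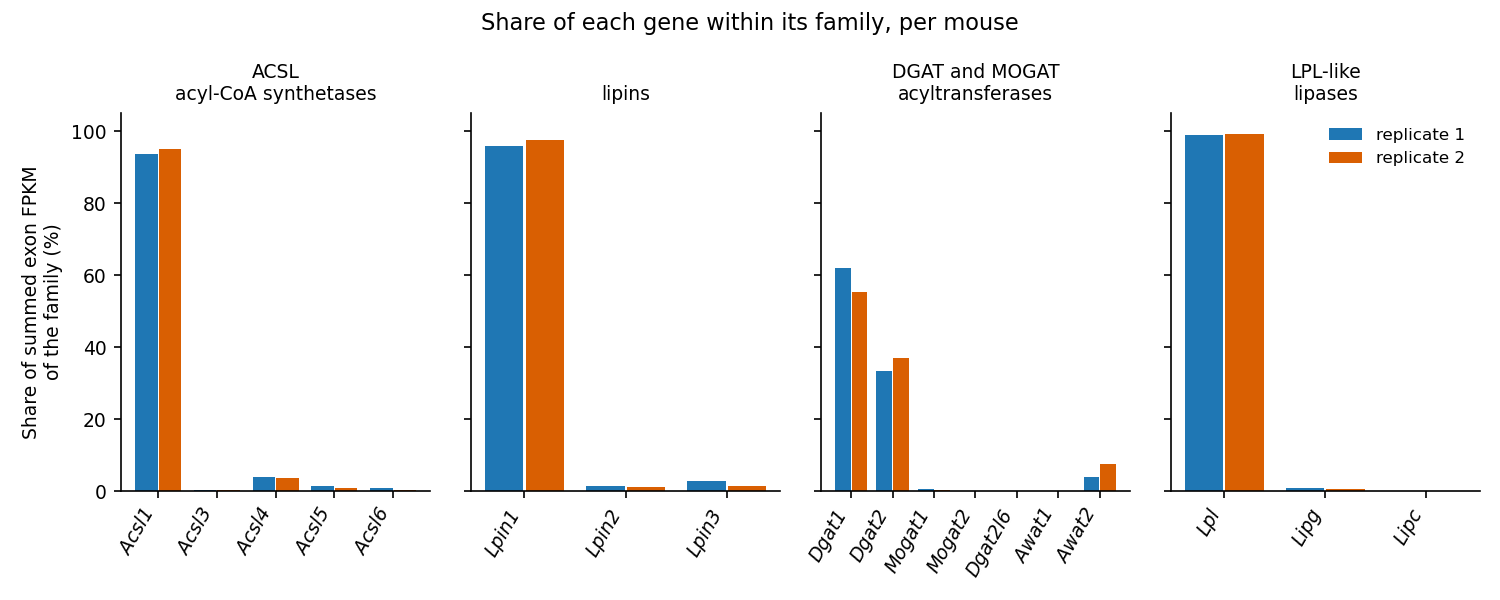
Share of the summed exon FPKM of each enzyme family held by each gene, in percent from 0, with 1 bar per mouse. *Lpl* (among *Lpl*, *Lipg* and *Lipc* only), *Lpin1* and *Acsl1* hold over 90% of their families in both mice, while *Dgat1* (61.9% and 55.3%) and *Dgat2* (33.4% and 36.9%) hold most of theirs between them.

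By exon FPKM the order was *Acsl1*, *Lpl*, *Lpin1*, *Gpihbp1*, *Acsl4*, *Dgat1*, *Dgat2*, *Vldlr*, *Mogat1* and *Gpam*, the same in both mice. The values of no neighboring pair in this order overlapped between the mice, with *Gpam* placed last only as listed. By intron FPKM *Acsl1* again led, and *Dgat1*, *Dgat2* and *Vldlr* kept their sequence without overlap. *Lpl* and *Lpin1* overlapped and changed places between the mice in introns, and so did *Gpihbp1* and *Acsl4*.

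The ratio of exon to intron FPKM placed the genes in another order. Over 3078 genes with a mean of at least 10 exon FPKM and an intron value above 0, its median was 28.4. *Dgat1* had a ratio of 5.19 in replicate 1 and 6.5 in replicate 2, and lay at percentile 2.34 of these genes by the ratio of means. *Lpin1* followed with 8.55 and 16.6, at percentile 12.2. Both ranked higher by introns than by exons, *Dgat1* at 240 against 1773 and *Lpin1* at 54 against 184. At the other end *Gpihbp1* had a ratio of 87 and 59, at percentile 84.5, on introns of under 1 FPKM that were deposited with 1 decimal. *Lpl* (33.3 by means) and *Acsl1* (38.7) lay near the middle, at percentiles 58 and 64.7. *Dgat2* was at 22.8, percentile 38, and *Acsl4* at 51.3, percentile 75.3.

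**Figure D4:**
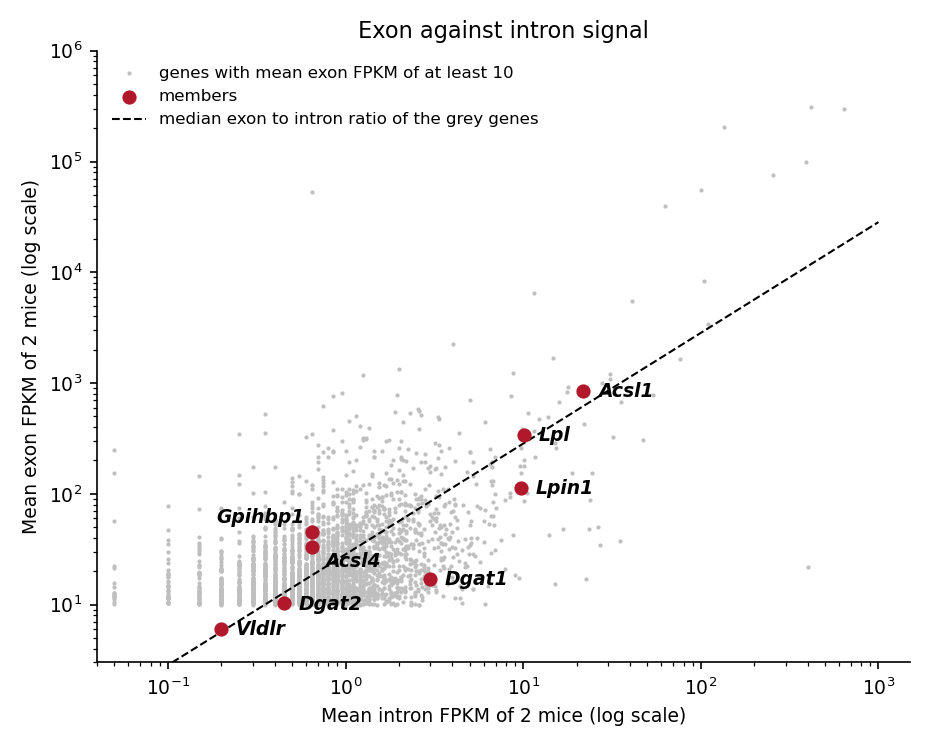
Mean exon FPKM (vertical) against mean intron FPKM (horizontal) of the 2 mice on log axes for all genes with a mean of at least 10 exon FPKM and an intron value above 0 (gray), with 8 genes of the group in red and a dashed line at the median ratio. *Dgat1*, at an exon to intron ratio of 5.72, and *Lpin1*, at 11.6, lie below the line of the median ratio, 28.4.

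Differences between the mice are given as log2 of replicate 2 over replicate 1. Of the 10 genes, 8 passed a mean of 1 exon FPKM, and 0 of these differed more than 2-fold, against 5.9% of all 9845 genes past this filter. In introns 6 genes passed a mean of 0.5 FPKM and 0 differed more than 2-fold as deposited, against 6.52% of 4220 genes. Counts of this size cannot set the group apart from other genes. Among the 8 genes, 6 were higher in replicate 2 and 2 (*Dgat1* and *Vldlr*) were higher in replicate 1 by the deposited exon FPKM. Of all genes past the filter, 42.5% were higher in replicate 2. The median deposited log2 ratio was 0.14 for the 8 genes and -0.08 for all genes past the filter. When each mouse was set to the same sum, all 8 were lower in replicate 2, *Dgat1* by more than 2-fold (-1.24). That scale lowers every gene in replicate 2 relative to replicate 1, as the deposited sums were 852961 and 1788120. Of genes with a mean of at least 10 exon FPKM, 95% had a deposited fold of replicate 2 over replicate 1 of at most 1.72. The share of all genes lower on that scale was not counted, and it does not set the 8 genes apart. In introns the signs were mixed, with *Lpl* and *Gpihbp1* both at 0.58, *Lpin1* at -0.67, *Dgat1* at -0.57, *Acsl4* at -0.19 and *Acsl1* at -0.04. After removal of a trend with intron GC content, *Gpihbp1* was at 1.08 and so beyond 2-fold, on only 759 bp of intron. The others stayed within 2-fold. How many of all genes were beyond 2-fold in introns after that removal was not counted.

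The difference between the mice moved with base composition. Across the 9845 genes, the log2 ratio and the GC content of the exons had a Spearman rho of -0.66, a value across genes measured in the same 2 libraries. *Dgat1* (GC content 56.6%), *Dgat2* (56.2%) and *Gpihbp1* (55.8%) lie above the median GC content of 50.2%, and *Acsl4* (39.0%) and *Lpl* (43.6%) lie below it. After removal of the trend the ratio of *Dgat1* changed from -0.25 to 0.25 and that of *Acsl4* from 0.17 to -0.26. *Gpihbp1* changed from 0.12 to 0.54, *Dgat2* from 0.04 to 0.50 and *Lpl* from 0.39 to 0.16. *Acsl1* (0.42) and *Lpin1* (0.34), whose GC content was near the median, changed little. *Dgat1* and *Acsl4* thus changed direction with this correction. The 6 genes higher in replicate 2 as deposited were lower on the equal-sum scale, which lowers every gene, so that turn says little about them. Centred on the median of all genes, they stayed higher, with *Lpl* at 0.47, *Acsl1* at 0.46, *Lpin1* at 0.35, *Acsl4* at 0.25, *Gpihbp1* at 0.19 and *Dgat2* at 0.11. *Dgat1* was then at -0.17. The direction between the mice thus depends on the scale and is not settled for these genes. *Vldlr* was lower in replicate 2 as deposited (-0.08), at equal sums and after the GC correction, and was at -0.01 after centring.

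**Figure D5:**
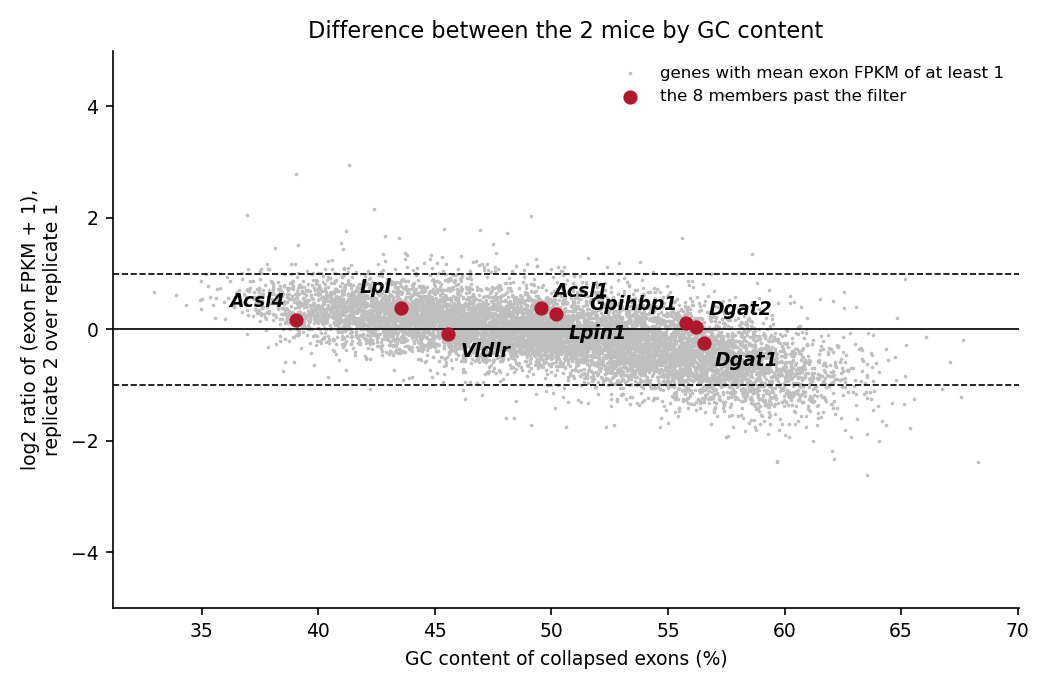
Log2 of replicate 2 over replicate 1 (exon FPKM + 1, as deposited) against exon GC content in percent for all genes past the filter (gray), with the 8 genes of the group past the filter in red and dashed lines at 2-fold. The ratio falls with GC content (rho -0.66), and all 8 named genes lie within 2-fold. A scale of equal sums, which lowers the ratio of every gene, puts all 8 below 0 and *Dgat1* beyond 2-fold.

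Within a mouse the scale of the library cancels, and several ratios were close in the pair. *Acsl1* stood at 8.57 and 8.47 times *Adipoq*, which encodes the adipocyte hormone adiponectin, and *Lpl* at 3.43 and 3.39 times. Against *Cd36*, the fatty acid translocase, *Acsl1* was at 1.22 and 1.18 and *Lpl* at 0.489 and 0.471. These pairs were chosen after the values were seen. *Adipoq* is 1 of 3 adipocyte markers that were higher in replicate 2 as deposited, while 6 were higher in replicate 1. Library scale cancels in such ratios, but the GC trend does not. After its removal the log2 ratios between the mice were 0.16 for *Lpl*, 0.42 for *Acsl1*, 0.38 for *Adipoq* and 0.02 for *Cd36*. *Lpl* and *Adipoq*, and *Acsl1* and *Cd36*, were then less close. Of 3112 genes with a mean of at least 10 exon FPKM, 248 (7.97%) had a fold between the mice within 5% of that of *Lpl*, so such closeness was not rare. All 9 adipocyte markers were above 0, with a summed exon FPKM of 898.9 in replicate 1 and 650.6 in replicate 2 and a median log2 ratio of -0.42 as deposited and -0.03 after removal of the GC trend. *Lpl*, *Acsl1* and *Lpin1* are known to be active in adipocytes as well as in secretory cells. Of the capillary endothelial markers 8 of 9 were listed, all above 0, with sums of 76.9 and 61.0 FPKM. Their median log2 ratio was -0.31 as deposited and -0.11 after removal of the GC trend. The part of either cell type in the values of the group was not tested.

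Around the group, 108 further genes of the same pathways were found, of which 86 reached a mean of 1 exon FPKM and 47 a mean of 10. These lists were drawn up by function, and 4 of the genes were more than 2-fold higher in replicate 1 and 1 in replicate 2, close to the 5.9% of all genes. Their median log2 ratio was -0.21 by the deposited FPKM. After removal of the GC trend the 4 genes were within 2-fold (*G0s2* -0.97, *Srebf1* -0.49, *Plin1* -0.46 and *Nr1h2* -0.33 on the log2 scale), and *Apoc1* was at 2.05. For uptake inside the cell, the binding protein genes *Fabp3* (3771.2 and 3078.1 FPKM) and *Fabp4* (501.7 and 564.0 FPKM) and *Cd36* (597.6 and 813.7 FPKM) were in the range of *Lpl* and *Acsl1* or above it. Among partners of lipoprotein lipase 12 of 17 genes reached 1 FPKM. The highest were the sorting receptor gene *Sort1* (70.2 and 100.5 FPKM) and the apolipoprotein genes *Apoe* (97.4 and 69.8 FPKM) and *Apoc1* (27 and 86.0 FPKM), the last of which was the gene over 2-fold higher in replicate 2. *Lmf1*, needed for folding of the lipase, was at 3.1 and 2.3 FPKM, its partner *Sel1l* at 13.4 and 13.6 FPKM and the inhibitor *Angptl4* at 7.8 and 6.3 FPKM, while the activator gene *Apoc2* was listed at 0.

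Glycerol 3-phosphate for the pathway is made by the products of *Gpd1* (119.9 and 65.8 FPKM) and *Gk* (37.2 and 55.9 FPKM), both within 2-fold between the mice. *Acss1*, which encodes a mitochondrial acetyl-CoA synthetase, was at 136.3 and 102.0 FPKM. For the second acylation *Agpat1* was at 73.6 and 54.0 FPKM and *Agpat2* at 9.9 and 12.1 FPKM. Of the 11 lipid droplet genes 8 reached 1 FPKM, led by *Cidea* (1865.1 and 1483.9 FPKM) and *Plin2* (788.1 and 551.5 FPKM), which encode droplet surface proteins. *Plin1*, the perilipin of adipocytes, was at 7.8 and 2.6 FPKM and was more than 2-fold higher in replicate 1. Among the genes of triglyceride breakdown, *G0s2*, an inhibitor of adipose triglyceride lipase, was more than 2-fold higher in replicate 1 (1202.5 and 453.3 FPKM), while the lipase gene *Pnpla2* was at 32.3 and 38.5 FPKM and its activator *Abhd5* at 134.6 and 154.2 FPKM. Of 16 regulators of lipid synthesis all reached 1 FPKM. *Thrsp* (1498.7 and 925.3 FPKM) and *Insig1* (171.4 and 186.8 FPKM) led, and *Srebf1* (68.3 and 30.4 FPKM) and *Nr1h2* (8.9 and 3.6 FPKM) were more than 2-fold higher in replicate 1. *Pparg* was at 8.4 and 11.3 FPKM and *Stat5a* at 21.0 FPKM in both mice.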

How the data were processed

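Total RNA from L10 mammary tissue of 2 wt/Wap-Tbrg4 mice was made into stranded libraries by the authors, mapped to mm10 with STAR and counted with HTSeq on collapsed exons and introns. The authors generated the deposited exon and intron FPKM with DESeq2. Versions, the strand setting, the treatment of reads mapping to several places and the FPKM scaling total are not given in the sources used here. Read counts were not given and whole reads could not be recovered, so depth is unknown and precision rests on 2 mice.

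Of 20550 rows, 35 had no usable symbol. Positions and exon GC content came from RefSeq on GRCm38 (98.2% of genes), and intron GC content came from the same transcripts. Log2 ratios used FPKM + 1 (exons, mean of at least 1) and FPKM + 0.1 (introns, mean of at least 0.5). A lowess fit over 30% of genes removed the GC trend. Coding sequences were aligned with minimap2 2.31, and 0 of the 10 genes had another place on the chromosomes with 50% aligned at 95% identity. *Mogat1* had such a place on another scaffold, with 100% aligned at 99.5% identity. Whether that scaffold was in the reference used by the authors is not given in the sources used here. Python 3.11.15, numpy 2.4.6, pandas 2.3.3, statsmodels 0.14.6 and matplotlib 3.10.9 were used. Only the 2-fold count and the GC correction were tried on simulated data, with planted changes well beyond 2-fold. Named genes were the 10 genes, their families, per list the 3 highest and any over 2-fold apart, and marker genes, while *Lmf1*, *Sel1l*, *Angptl4*, *Apoc2*, *Pparg*, *Stat5a* and *Scd1* were chosen after their values were seen. The 10 genes and the lists were chosen with earlier results of these data known. Alternatives covered the pseudocount, filter, scale, GC trend, each mouse alone, and intron for exon values. The ChIP-seq samples were not analysed here. Some items of these lists are not reported here.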

Additional observations from a re-analysis of the deposited data

How the results depend on the processing

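Of 215 alternative values for 51 results, 163 stayed within the spread of the 2 mice (counts within 1.5 times, log2 ratios within 0.1) and 52 moved. The values from 1 mouse alone stayed within that spread by construction, and the intron FPKM set to a sum of 1000000 moved by construction. The tally therefore does not measure how robust the results are. With each mouse set to a sum of 1000000, mean exon FPKM became 38.7 for *Gpihbp1*, 5.26 for *Vldlr*, 95 for *Lpin1*, 8.83 for *Dgat2* and 28.2 for *Acsl4*. Intron values on that scale, which is larger because deposited intron sums were 9092.5 and 10570.1, became 1023 for *Lpl*, 65.3 for *Gpihbp1*, 20.5 for *Vldlr*, 1015 for *Lpin1*, 311 for *Dgat1*, 46.4 for *Dgat2*, 2232 for *Acsl1* and 66.9 for *Acsl4*. On the sum scale the exon log2 ratio of replicate 2 to replicate 1 was -0.67 for *Lpl*, -0.92 for *Gpihbp1*, -0.96 for *Vldlr*, -0.78 for *Lpin1*, -1.24 for *Dgat1*, -0.91 for *Dgat2*, -0.68 for *Acsl1* and -0.86 for *Acsl4*, so *Dgat1* passed 2-fold. The sum scale lowers the exon ratio of every gene, not only of these genes. All genes more than 2-fold apart in exons numbered 581, and 1102 with a pseudocount of 0.1, 231 with a minimum mean of 10 FPKM and 186 after GC correction. In introns they numbered 275, and 66 with a pseudocount of 1 and 644 with a minimum of 0.1. None of the 10 genes was among them in those settings. GC correction was not among the settings of the intron count, and with it the intron log2 ratio of *Gpihbp1* was 1.08, beyond 2-fold. By intron in place of exon FPKM, *Dgat1* to *Dgat2* was 6.67 (1.67 by exons), *Acsl1* to *Acsl4* 33.5 (25.3), *Lpl* to *Gpihbp1* 15.6 (7.45), *Lpin1* to *Lpin2* 48.8 (78.3) and *Lpin1* to *Lpin3* 21.7 (47.3). The causes were not tested. Without the chromosome 19 run, an alternative chosen after seeing the data, 0 of the genes were listed at 0 in place of 1, and 29.1% of all genes were. The count for the group was fixed in advance, as *Gpam* is itself in the run. Ratios to *Gpam* could not be given. No paired analysis was possible because both mice belong to 1 group and no test was made.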

Other observations

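A second stretch of values at 0 lay outside the triglyceride genes. On the X chromosome the first 136 listed genes, 68 on each strand, up to *Dock11* at 35887271, the first gene above 0, were all at 0 in exons and introns of both mice, against 281 of 669 (42.0%) of the later genes of that chromosome. They included *Ddx3x*, *Uba1*, *Usp9x*, *Kdm6a*, *Timp1* and *Atp6ap2*, which were looked up after the stretch was seen and of which *Ddx3x* and *Uba1*, an RNA helicase and a ubiquitin-activating enzyme, are known to be active in most cells. *Acsl4* lies on the same chromosome outside this stretch. No cause was tested for it.

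Markers of other cell types were measured beside the triglyceride genes. The summed exon FPKM of 6 macrophage markers was 87.8 in replicate 1 and 45.5 in replicate 2, that of 5 myoepithelial markers, without *Acta2* in the chromosome 19 run at 0, 126.6 and 86.2, that of 5 fibroblast markers 161.7 and 147.2 and that of 5 lymphocyte markers 110.6 and 93.2, of which *Jchain* gave 107.4 and 89.3. After removal of the GC trend the median log2 ratio changed from -0.54 to -0.34 for macrophage and from -0.76 to -0.23 for myoepithelial markers. It changed from -0.69 to -0.33 for fibroblast and from -0.10 to -0.48 for lymphocyte markers, the last on 2 genes past the filter. Of the fibroblast markers *Dcn* was higher in replicate 2 (42.9 and 78.4 FPKM) and *Col3a1* lower (71.2 and 43.6 FPKM). The share of these cells was not measured. The 9 secretory luminal markers summed to 292578 FPKM in replicate 1 and 727840 FPKM in replicate 2, with *Csn2* and *Wap* making up most of it.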
